A study of Homo sapiens with 9 samples.

Results

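The type I interferon-stimulated genes described here are 39 genes named by symbol, chosen as a set whose transcription is induced through the type I interferon receptor. Of these, 37 had a row among the 17369 genes of the expression table, and Mx2 and Eif2ak2 are not analysed here. RNA was measured in 9 bulk tumors grown from TBP3743, a murine anaplastic thyroid cancer line derived from B6129SF1 mice with a thyroid-specific activating Braf mutation and loss of Trp53. The cells were injected into the thyroid of 6-week-old female mice and the tumors were taken 14 days later, with 3 tumors per group. The original/B6129SF1 tumors grew in B6129SF1 hosts, a hybrid strain with a C57BL/6 parent, from cells that had not been passaged through C57BL/6 mice. The adapted/B6129SF1 tumors grew in the same hosts from adapted cells, which had been recovered after 3 rounds of passage through C57BL/6 mice. The adapted/B6 tumors grew from the adapted cells in C57BL/6 hosts. The adapted/B6129SF1 and original/B6129SF1 groups thus differ in the cells, the adapted/B6 and adapted/B6129SF1 groups differ in the host, and the adapted/B6 and original/B6129SF1 groups differ in both. Each kind of cell was 1 line, so tumors of a group are separate animals but not separate lines.

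Type I interferons, the interferon-alpha and interferon-beta proteins, bind a receptor made of IFNAR1 and IFNAR2. The receptor activates the kinases JAK1 and TYK2, which phosphorylate STAT2. It joins IRF9 in a complex that binds the interferon-stimulated response element in front of its target genes. The targets sense foreign RNA and DNA, block viral replication, attach the ubiquitin-like protein ISG15 to other proteins, and include STAT2, IRF9 and IRF7 themselves, so that the response can feed itself. Many of the same genes also respond to interferon-gamma, which signals through a receptor of its own. In a tumor both the cancer cells and the infiltrating host cells can express them. In these bulk samples more cells of a type and more RNA per cell cannot be told apart.

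The values are FPKM, a read level per unit of transcript length that was also scaled between tumors, and changes are log2 fold changes of FPKM + 1 with their SE, which understate the change of weakly expressed genes. A gene passed when the adjusted p of limma, with Benjamini-Hochberg adjustment over the 10263 genes that reached 1 FPKM in 3 or more tumors, was under 0.05, and was a DEG when its log2 fold change was also above 1 in size. The summed FPKM of a tumor lay between 457983 and 540514. The absolute depth is unknown, and the depth relative to original/B6129SF1 replicate 1 was approximately 0.963 to 1.35. Skeletal muscle markers took 5.86% of all FPKM in adapted/B6129SF1 replicate 3 and 1.07% in replicate 1 of the adapted/B6 group, and no more than 0.132% in the other tumors. The labels name a cancer epithelial cell and give a human organism, although their titles name mice and the symbols are those of mouse genes. Of the epithelial and thyroid markers, Epcam was at most 2.5 FPKM and Tg ranged from 0.0153 to 31.0 FPKM, whereas Krt8, a simple-epithelium keratin, was at 153 FPKM or more in every tumor.

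In the adapted tumors this set of genes was higher than in the original/B6129SF1 tumors. In the adapted/B6129SF1 group 18 of the 37 genes passed, where 4.37% of all genes tested passed as higher, and 0 passed as lower, where 3.92% did. In the adapted/B6 group 22 passed as higher, where 3.99% of all genes tested did, and 0 as lower, where 2.77% did. Both comparisons use the same original/B6129SF1 tumors. All 37 genes passed the filter on low values, but Oas3 did so only through the adapted tumors and had to differ, so its call supports nothing. Without it, 17 and 21 of 36 genes passed.

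The log2 fold change was above 0 for 36 of the 37 genes in each comparison, against 45.7% of all genes tested in the adapted/B6129SF1 group and 46.1% in the adapted/B6 group. The exception in both was Ifit2. The median log2 fold change was 0.75 in the adapted/B6129SF1 group and 1.00 in the adapted/B6 group, while the medians over all genes tested were -0.03 and -0.03. Every adapted/B6129SF1 tumor lay above every original/B6129SF1 tumor for 28 of the genes, a pattern that 13.6% of all genes tested showed. In the adapted/B6 group the number was 30, and the share of all genes tested 14.9%. DEGs numbered 8 in the adapted/B6129SF1 group and 13 in the adapted/B6 group, where 2.36% and 2.42% of all genes tested were DEGs in the higher direction. Without Oas3 the DEGs numbered 7 and 12 of 36 genes, and the other counts of this paragraph include Oas3. The number that passed in the adapted/B6129SF1 group depended on single tumors. It was 11, 8 and 4 without original/B6129SF1 replicates 1, 2 and 3, and 8, 7 and 9 without adapted/B6129SF1 replicates 1, 2 and 3. In the adapted/B6 group it was 8 without original/B6129SF1 replicate 3, 13 without adapted/B6 replicate 2 and 7 without adapted/B6 replicate 3. In the settings with the lowest count of each group, fewer of all genes tested passed too. For the other settings the share of all genes tested is not given. The lower counts are thus not read as particular to this set.

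**Figure D1:**
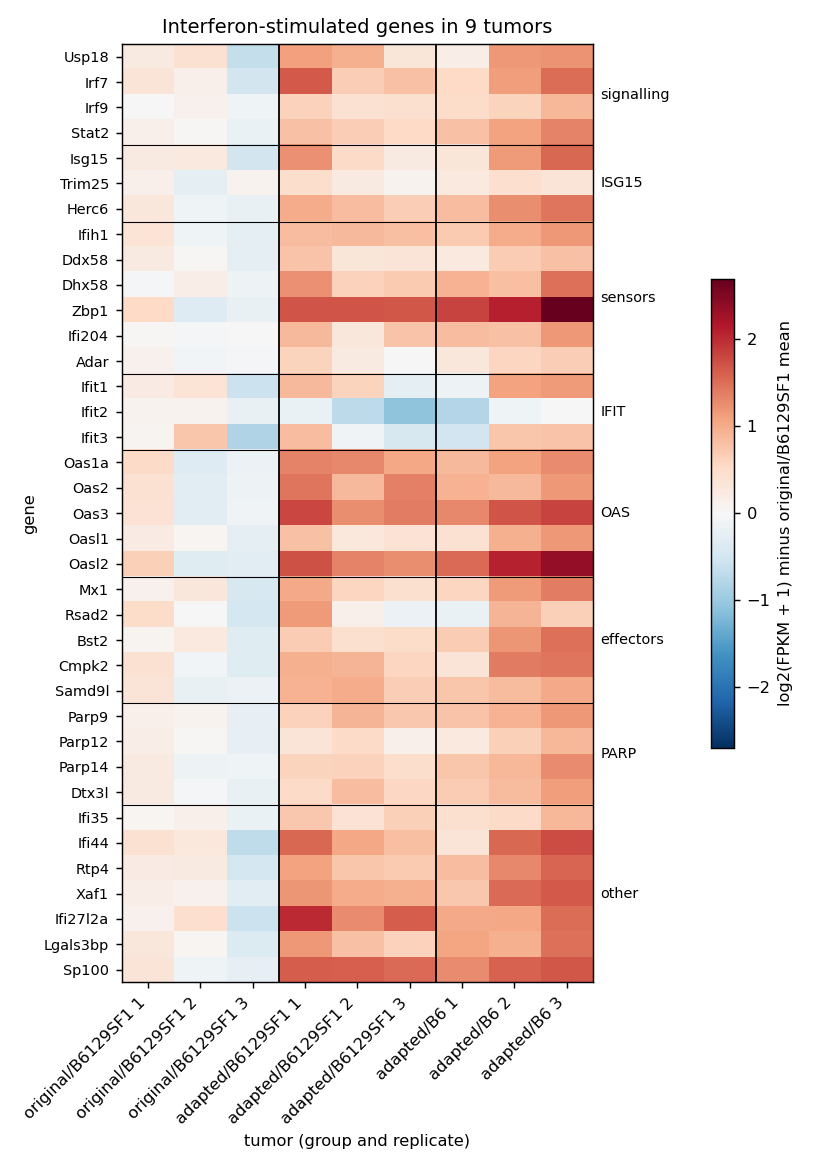
Heat map of the 37 interferon-stimulated genes (rows, by role) in the 9 tumors (columns, by group and replicate), coloured by log2(FPKM + 1) minus the mean of the 3 original/B6129SF1 tumors. Most rows are red in the 6 adapted tumors, while the 3 IFIT rows show no such block.

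The 18 genes that passed in the adapted/B6129SF1 group were Oas1a, Oas2, Oas3, Oasl2, Stat2, Ifi35, Ifih1, Dhx58, Parp9, Dtx3l, Xaf1, Zbp1, Samd9l, Ifi27l2a, Herc6, Lgals3bp, Ifi204 and Sp100. The 22 that passed in the adapted/B6 group were these with Irf9, Bst2, Parp14 and Rtp4. As the comparisons share their control tumors, the calls in common are not independent. Some calls were fragile. In the adapted/B6129SF1 group Dtx3l passed under 4 of the 18 alternatives, Ifi35, Dhx58 and Lgals3bp under 5, Ifi204 under 7 and Ifih1 under 8. Herc6 passed there under 9, and Stat2 and Xaf1 under 10. In the adapted/B6 group Ifi35 passed under 5, and Oas2 and Ifi27l2a under 10. The remaining 15 include several of the genes most often used to read a type I interferon response, among them Isg15, Ifit1, Ifit3, Mx1, Rsad2 and Usp18. Not passing does not show that these genes were equal between groups.

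**Figure D2:**
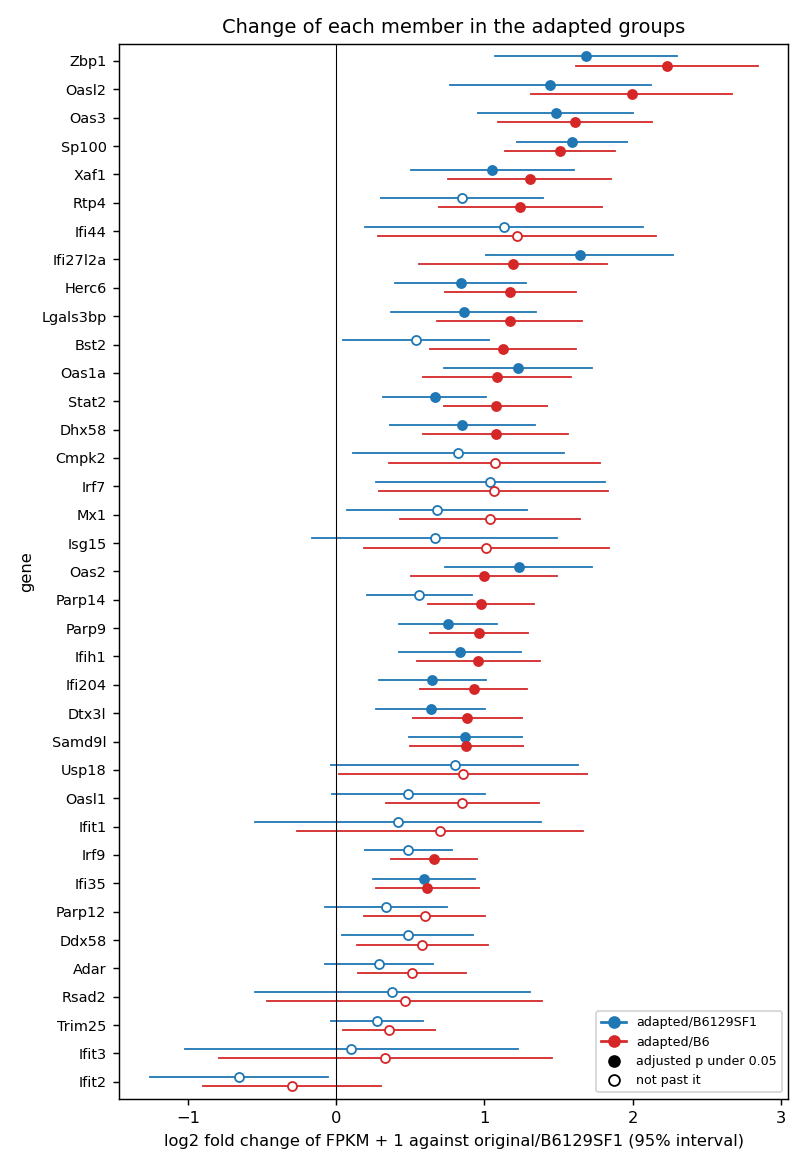
Log2 fold change of FPKM + 1 against the original/B6129SF1 tumors for each of the 37 genes (points) with its 95% interval (lines, not adjusted for the number of genes), in the adapted/B6129SF1 (blue) and adapted/B6 (red) groups with 3 tumors each. Filled points have an adjusted p under 0.05, and Zbp1 leads the order at 2.23 in the adapted/B6 group. Oas3 met the filter on low values only through the adapted tumors.

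Among the members that carry the signal itself, STAT2 and IRF9 form the transcription factor complex, IRF7 amplifies interferon production and USP18 shuts the receptor off. Stat2 was at 10.3, 9.40 and 8.07 FPKM in the original/B6129SF1 tumors, 16.7, 15.3 and 13.8 in the adapted/B6129SF1 tumors and 16.8, 20.6 and 25.0 in the adapted/B6 tumors. It was higher in every adapted tumor, by a log2 fold change of 0.66 ± 0.15 (SE, limma adjusted p = 0.0339) in the adapted/B6129SF1 group and 1.08 ± 0.15 (limma adjusted p = 0.00601) in the adapted/B6 group. Irf9 was at 12.7, 13.8 and 11.6 FPKM in the original/B6129SF1 tumors, 20.1, 17.1 and 17.3 in the adapted/B6129SF1 tumors and 18.2, 19.6 and 24.4 in the adapted/B6 tumors. Its groups did not overlap either, and the rise passed in the adapted/B6 group (0.66 ± 0.13 SE, limma adjusted p = 0.0203), while the value in the adapted/B6129SF1 group was 0.49 ± 0.13 (limma adjusted p = 0.0521).

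Irf7 was at 19, 16.2 and 10.1 FPKM in the original/B6129SF1 tumors, 48.2, 23.8 and 26.2 in the adapted/B6129SF1 tumors and 21.7, 33.4 and 43.6 in the adapted/B6 tumors. All 6 adapted tumors were above the original/B6129SF1 tumors, but they spread widely, and the log2 fold changes of 1.04 ± 0.34 and 1.06 ± 0.34 (SE) had limma adjusted p values of 0.0962 and 0.0982. Usp18 was at 3.98, 4.54 and 1.67 FPKM in the original/B6129SF1 tumors, 7.97, 7.20 and 4.25 in the adapted/B6129SF1 tumors and 3.76, 8.44 and 8.67 in the adapted/B6 tumors. Here adapted/B6129SF1 replicate 3 and adapted/B6 replicate 1 lay within the range of the original/B6129SF1 tumors, and neither comparison passed (limma adjusted p = 0.206 and 0.197).

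In the ISG15 system, ISG15 is the ubiquitin-like modifier and HERC6 is the mouse ligase that attaches it, while TRIM25 is a ubiquitin ligase that activates RIG-I. Isg15 was at 31.3, 31.9 and 18.4 FPKM in the original/B6129SF1 tumors, 63.4, 38.2 and 31.6 in the adapted/B6129SF1 tumors and 33.4, 60.1 and 79.8 in the adapted/B6 tumors. The adapted/B6129SF1 range overlapped the original/B6129SF1 range by 1 tumor, and the log2 fold changes were 0.66 ± 0.36 (limma adjusted p = 0.282) and 1.01 ± 0.36 (limma adjusted p = 0.133). Herc6 was at 4.14, 2.87 and 2.64 FPKM in the original/B6129SF1 tumors, 7.41, 6.45 and 5.61 in the adapted/B6129SF1 tumors and 6.4, 8.91 and 10.3 in the adapted/B6 tumors. It rose in both adapted groups, by 0.84 ± 0.19 (limma adjusted p = 0.0343) and 1.17 ± 0.19 (limma adjusted p = 0.0105) on the log2 scale. Trim25 had log2 fold changes of 0.27 and 0.36 and passed in neither.

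On the log2(FPKM + 1) scale the gene with the largest change of the set in both adapted groups, Zbp1, was a nucleic acid sensor, whereas the ratio of mean FPKM was larger for the weakly expressed Oas3. ZBP1 binds Z-form nucleic acids and can trigger necroptosis. Zbp1 was at 17.7, 9.19 and 10.3 FPKM in the original/B6129SF1 tumors, 40.8, 40.8 and 40.3 in the adapted/B6129SF1 tumors and 45.1, 54.2 and 86.7 in the adapted/B6 tumors. The 3 groups did not overlap, and the group means were 12.4 ± 4.64, 40.6 ± 0.272 and 62.0 ± 21.9 FPKM (SD, n = 3). The log2 fold change against the original/B6129SF1 tumors was 1.69 ± 0.27 (SE, limma adjusted p = 0.0109) in the adapted/B6129SF1 group and 2.23 ± 0.27 (limma adjusted p = 0.00333) in the adapted/B6 group.

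The cytoplasmic RNA helicases differed among themselves in whether they passed. Ifih1, which encodes MDA5, was at 4.26, 2.72 and 2.39 FPKM in the original/B6129SF1 tumors, 6.16, 6.4 and 6.10 in the adapted/B6129SF1 tumors and 5.61, 7.09 and 8.09 in the adapted/B6 tumors. Dhx58, which encodes LGP2, a regulator of the other helicases, was at 5.07, 6.12 and 4.65 FPKM in the original/B6129SF1 tumors, 13.6, 8.6 and 9.17 in the adapted/B6129SF1 tumors and 10.9, 9.99 and 16.4 in the adapted/B6 tumors. Both were higher in every adapted tumor and passed in both groups, with log2 fold changes of 0.84 and 0.96 for Ifih1 and 0.85 and 1.07 for Dhx58. Ddx58, which encodes RIG-I, was at 11.3, 9.62 and 7.63 FPKM in the original/B6129SF1 tumors, 16.7, 12.1 and 12.2 in the adapted/B6129SF1 tumors and 11.4, 15.8 and 17.1 in the adapted/B6 tumors. Its groups did not overlap, although adapted/B6 replicate 1 was close to the highest original/B6129SF1 tumor, and its changes of 0.48 ± 0.19 and 0.58 ± 0.19 did not pass (limma adjusted p = 0.156 and 0.109).

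Ifi204, a DNA sensor of the interferon-inducible p200 family, was at 23.1, 22.1 and 22.4 FPKM in the original/B6129SF1 tumors, 42.0, 28.0 and 39.0 in the adapted/B6129SF1 tumors and 40.6, 39.8 and 51.8 in the adapted/B6 tumors. It rose by 0.65 ± 0.16 (limma adjusted p = 0.0422) and 0.93 ± 0.16 (limma adjusted p = 0.0123) on the log2 scale. Genes of this family are much alike in sequence, so how reads were split between Ifi204 and its neighbours is uncertain. Adar, which edits adenosine in double-stranded RNA, had log2 fold changes of 0.29 and 0.51 that did not pass.

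The oligoadenylate synthetases, which activate RNase L on sensing double-stranded RNA, and the related OASL proteins had 5 genes in the list. Apart from Oas3, 3 of 4 passed in each adapted group. Oas3 was at 1.39, 0.488 and 0.725 FPKM in the original/B6129SF1 tumors, 5.35, 3.38 and 3.77 in the adapted/B6129SF1 tumors and 3.52, 4.96 and 5.5 in the adapted/B6 tumors. Oasl2 was at 12.1, 5.66 and 5.78 FPKM in the original/B6129SF1 tumors, 26.8, 20.3 and 19.1 in the adapted/B6129SF1 tumors and 23.3, 34.5 and 42.2 in the adapted/B6 tumors. Neither gene overlapped between the original/B6129SF1 and adapted tumors. The log2 fold changes of Oas3 were 1.48 ± 0.23 and 1.61 ± 0.23 (SE), given as a description because of its filter, and those of Oasl2 were 1.44 ± 0.30 (limma adjusted p = 0.0238) and 1.99 ± 0.30 (limma adjusted p = 0.00713).

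Oas1a was at 5.39, 2.5 and 3.03 FPKM in the original/B6129SF1 tumors, 10.3, 10.1 and 8.21 in the adapted/B6129SF1 tumors and 7.28, 8.51 and 9.90 in the adapted/B6 tumors. Oas2 was at 2.74, 1.32 and 1.56 FPKM in the original/B6129SF1 tumors, 6.64, 4.17 and 6.24 in the adapted/B6129SF1 tumors and 4.35, 4.19 and 5.36 in the adapted/B6 tumors. Oas1a rose by 1.23 ± 0.22 and 1.08 ± 0.22, and Oas2 by 1.23 ± 0.22 and 1.00 ± 0.22 (SE), with limma adjusted p values between 0.0143 and 0.0311. Mouse Oas1 genes are near-copies of each other, so the reads assigned to Oas1a are uncertain. Oasl1, which in mice restrains translation of IRF7, had log2 fold changes of 0.49 and 0.85 that did not pass (limma adjusted p = 0.211 and 0.0583).

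The IFIT proteins bind viral RNA and block its translation, and by limma 0 of their 3 genes passed in either group. Of all genes tested, 4.37% and 3.99% passed as higher, so nothing is read from a count of 0 among 3 genes. At an unadjusted p under 0.05, 1 was called, Ifit2 in the adapted/B6129SF1 group, where 2721 of the 10263 genes tested were. In the adapted/B6 group 0 were, against 2502 of all genes tested. Ifit1 was at 10.3, 11.3 and 5.4 FPKM in the original/B6129SF1 tumors, 16.8, 13.7 and 7.11 in the adapted/B6129SF1 tumors and 7.71, 19.3 and 20.5 in the adapted/B6 tumors. Ifit3 was at 11.9, 19.4 and 5.93 FPKM in the original/B6129SF1 tumors, 20.8, 10.5 and 7.98 in the adapted/B6129SF1 tumors and 7.59, 19.4 and 19.7 in the adapted/B6 tumors. For both genes the groups overlapped, the spread within a group was larger than the difference between the means, and the intervals of the changes reached from -0.55 to 1.38 for Ifit1 and from -1.02 to 1.23 for Ifit3 in the adapted/B6129SF1 group. Ifit2 was at 19.7, 19.8 and 15.8 FPKM in the original/B6129SF1 tumors, 16.1, 10.8 and 8.07 in the adapted/B6129SF1 tumors and 10.2, 16.9 and 18.3 in the adapted/B6 tumors. Its log2 fold changes were -0.66 ± 0.26 (limma adjusted p = 0.156) and -0.30 ± 0.26 (limma adjusted p = 0.532), the only values below 0 in the list against the original/B6129SF1 tumors. Ifit1 and Ifit3 have close copies in the mouse genome, which makes their read assignment uncertain.

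**Figure D3:**
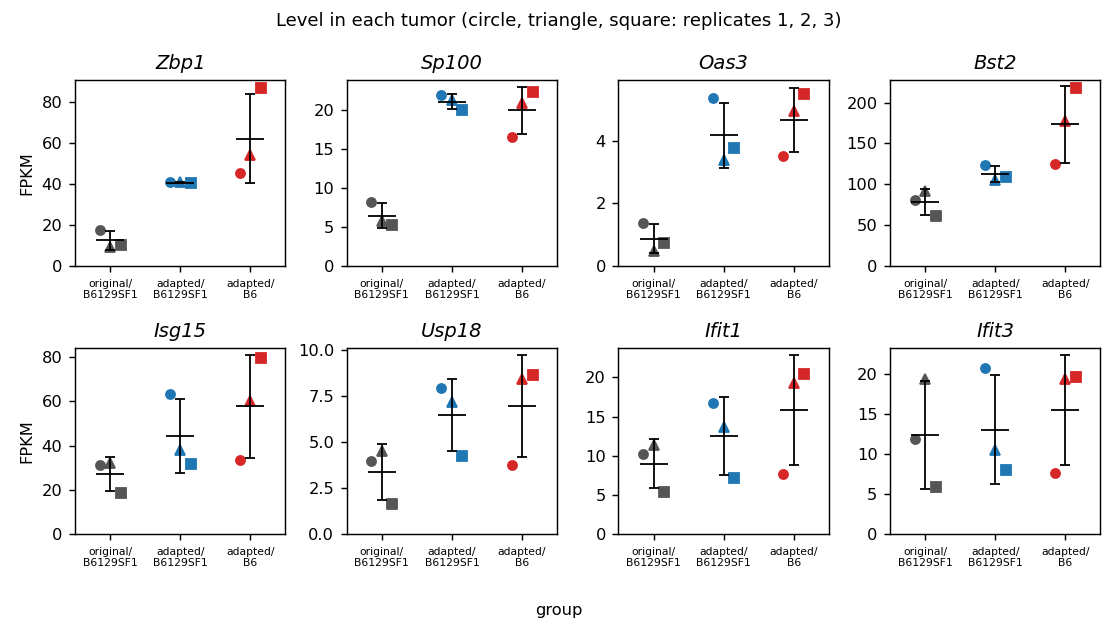
FPKM (y axis, from 0) of 8 of the genes in each tumor of the original/B6129SF1, adapted/B6129SF1 and adapted/B6 groups (x axis), with circles, triangles and squares for replicates 1, 2 and 3 and black bars for the mean and SD of 3 tumors. Zbp1, Sp100, Oas3 and Bst2 separate the original/B6129SF1 tumors from the adapted tumors, whereas Usp18, Ifit1 and Ifit3 overlap.

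Of the direct antiviral effectors, BST2, or tetherin, holds budding virus at the cell surface, and it had the highest mean FPKM of the set in every group. Bst2 was at 81.2, 92.1 and 60.6 FPKM in the original/B6129SF1 tumors, 124, 105 and 108 in the adapted/B6129SF1 tumors and 125, 178 and 218 in the adapted/B6 tumors. The 3 groups did not overlap, and the rise passed in the adapted/B6 group (1.13 ± 0.22 SE, limma adjusted p = 0.0194), while the log2 fold change in the adapted/B6129SF1 group was 0.54 ± 0.22 (limma adjusted p = 0.156). Samd9l, a restriction factor that slows translation, rose in both groups by 0.87 ± 0.17 and 0.88 ± 0.17 (limma adjusted p = 0.0196 and 0.0190).

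The other effectors were weakly expressed. Mx1, a dynamin-like GTPase that is defective in many inbred mouse strains, was at 2.10, 2.51 and 1.12 FPKM in the original/B6129SF1 tumors, 4.8, 3.28 and 2.83 in the adapted/B6129SF1 tumors and 3.27, 5.29 and 6.41 in the adapted/B6 tumors. It did not overlap between the original/B6129SF1 and adapted tumors but missed the threshold, with log2 fold changes of 0.68 ± 0.27 (limma adjusted p = 0.149) and 1.04 ± 0.27 (limma adjusted p = 0.0537). Rsad2, which encodes viperin, was at 4.56, 2.94 and 1.83 FPKM in the original/B6129SF1 tumors, 7.76, 3.37 and 2.55 in the adapted/B6129SF1 tumors and 2.48, 6.53 and 5.17 in the adapted/B6 tumors. Its groups overlapped, and its genomic neighbour Cmpk2, a mitochondrial nucleotide kinase, had log2 fold changes of 0.82 and 1.07 that did not pass either.

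PARP9 and its partner ubiquitin ligase DTX3L promote interferon-driven transcription, and PARP12 and PARP14 are further ADP-ribosyltransferases induced by interferon. Parp9 was at 11.4, 11.2 and 8.67 FPKM in the original/B6129SF1 tumors, 16.4, 20.4 and 17.8 in the adapted/B6129SF1 tumors and 18.4, 20.8 and 24.6 in the adapted/B6 tumors. Dtx3l was at 8.89, 7.17 and 6.25 FPKM in the original/B6129SF1 tumors, 10.9, 13.9 and 11.3 in the adapted/B6129SF1 tumors and 12.4, 14.1 and 17.3 in the adapted/B6 tumors. The pair, which are neighbours in the genome, followed the same order of tumors in both adapted groups, and both passed in both. The log2 fold changes were 0.75 and 0.96 for Parp9 and 0.64 and 0.88 for Dtx3l, whose call in the adapted/B6129SF1 group was lost when any single tumor was left out. Parp14 rose in the adapted/B6 group by 0.98 ± 0.16 (limma adjusted p = 0.00894) and had a value of 0.56 ± 0.16 (limma adjusted p = 0.0628) in the adapted/B6129SF1 group. Parp12 had log2 fold changes of 0.33 and 0.60 that did not pass.

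Sp100, a component of PML nuclear bodies, gave the lowest adjusted p of the set. It was at 8.24, 5.76 and 5.24 FPKM in the original/B6129SF1 tumors, 21.8, 21.3 and 19.9 in the adapted/B6129SF1 tumors and 16.6, 20.9 and 22.3 in the adapted/B6 tumors. The lowest adapted tumor was above the highest original/B6129SF1 tumor by more than any group's SD. The log2 fold changes were 1.59 ± 0.16 (limma adjusted p = 0.00242) and 1.51 ± 0.16 (limma adjusted p = 0.00285).

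Ifi27l2a, which encodes a small hydrophobic protein and is a common readout of interferon in mouse tissue, was at 36.6, 46.4 and 22.3 FPKM in the original/B6129SF1 tumors, 138, 83.0 and 106 in the adapted/B6129SF1 tumors and 69.8, 70.5 and 97.2 in the adapted/B6 tumors. It rose by 1.64 ± 0.28 (limma adjusted p = 0.0129) in the adapted/B6129SF1 group and 1.19 ± 0.28 (limma adjusted p = 0.0400) in the adapted/B6 group. It has a close paralogue, so its read assignment is uncertain. Xaf1, a pro-apoptotic antagonist of XIAP, rose by 1.05 ± 0.24 and 1.30 ± 0.24 (limma adjusted p = 0.0329 and 0.0170).

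Lgals3bp, a secreted galectin-binding glycoprotein, was at 40.1, 33.7 and 24.8 FPKM in the original/B6129SF1 tumors, 73.6, 56.9 and 50.1 in the adapted/B6129SF1 tumors and 68.2, 63.7 and 92.6 in the adapted/B6 tumors. It rose in both groups, by 0.86 and 1.17 on the log2 scale, as did Ifi35, by 0.59 and 0.62, with the fragile calls of both given above. Rtp4, a restraint on the interferon response, rose in the adapted/B6 group by 1.24 ± 0.24 (limma adjusted p = 0.0204) and had a value of 0.85 ± 0.24 (limma adjusted p = 0.0664) in the adapted/B6129SF1 group. Ifi44 had log2 fold changes of 1.13 ± 0.41 and 1.22 ± 0.41 that did not pass (limma adjusted p = 0.125 and 0.113), and its FPKM ranged from 9.22 to 26.2 within the adapted/B6 group alone.

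The adapted/B6 and adapted/B6129SF1 tumors set the same adapted cells in different hosts. By limma with Benjamini-Hochberg adjustment, 0 of the 37 genes passed, where 0.0292% of all genes tested passed in either direction. At an unadjusted p under 0.05, 3 members and 6.27% of all genes tested were called. The log2 fold change was above 0 for 33 of the 37 genes, against 51.5% of all genes tested, and the median was 0.23, against 0.01 over all genes tested. That median was 0.07 without adapted/B6 replicate 3, 0.14 without adapted/B6129SF1 replicate 3 and 0.39 without adapted/B6 replicate 1.

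Every adapted/B6 tumor lay above every adapted/B6129SF1 tumor for 4 genes, Stat2, Bst2, Parp14 and Zbp1, a pattern shown by 6.32% of all genes tested. Their log2 fold changes and intervals were 0.41 (0.06 to 0.76), 0.59 (0.10 to 1.08), 0.42 (0.06 to 0.77) and 0.54 (-0.07 to 1.16), with limma adjusted p values between 0.755 and 0.817. The 4 genes with values below 0 were Ifi27l2a at -0.45, Oas2 at -0.23, Oas1a at -0.14 and Sp100 at -0.08. A difference between the adapted groups was thus not called for Irf9, Bst2, Parp14 and Rtp4, and the intervals of Bst2 and Parp14 leave room for a change of up to 1.08 and 0.77.

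Within each group the tumors kept much the same order from gene to gene. Among the original/B6129SF1 tumors replicate 3 was the lowest for 27 of the 37 genes and replicate 1 the highest for 25. Among the adapted/B6129SF1 tumors replicate 1 was the highest for 31 genes, or 83.8%, where 37.4% of all genes tested had their highest value in that tumor. Replicate 3 was the lowest for 24 genes. Among the adapted/B6 tumors replicate 3 was the highest for 35 genes, or 94.6%, against 31.9% of all genes tested, and replicate 1 was the lowest for 33, or 89.2%. Genes that share a tumor are not independent, so these shares are a description. The summed FPKM of the 37 genes was 537.6, 512.3 and 373.2 in the original/B6129SF1 tumors, 995.3, 768.5 and 753.2 in the adapted/B6129SF1 tumors and 762.6, 992.9 and 1241 in the adapted/B6 tumors.

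The roles differed in this order too. In adapted/B6129SF1 replicate 1 all 5 OAS genes, all 3 IFIT genes and all 4 induced signalling genes had their highest value of the group, while all 4 genes of the PARP group had theirs in adapted/B6129SF1 replicate 2. In adapted/B6 replicate 1 all 5 effectors, all 3 IFIT genes and all 4 PARP genes were at their lowest. Both tumors with the most muscle RNA, adapted/B6129SF1 replicate 3 and adapted/B6 replicate 1, were the lowest of their groups for most members. The part of muscle in this order was not tested. With both left out, 11 members passed in the adapted/B6129SF1 group and DEGs numbered 20 in the adapted/B6 group. The share of all genes tested is not given for that setting, so these counts are a description.

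**Figure D4:**
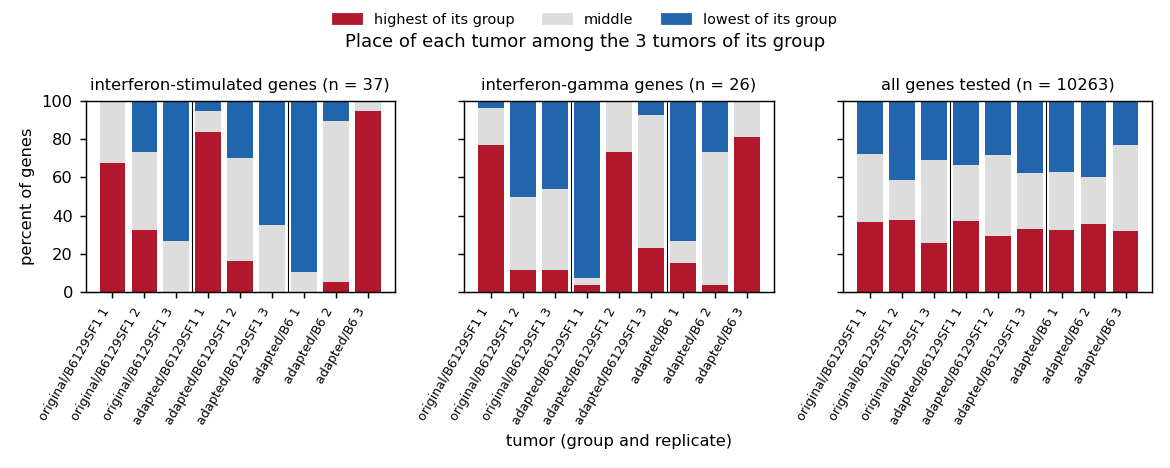
Percent of genes (y axis) for which each tumor (x axis, by group and replicate) was the highest (red), middle (grey) or lowest (blue) of the 3 tumors of its group, for the 37 interferon-stimulated genes, 26 interferon-gamma genes and all 10263 genes tested. Adapted/B6129SF1 replicate 1 is mostly red for the first set and mostly blue for the interferon-gamma genes, where it was the lowest for 24 of 26.

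The ligands of the pathway were barely detected. Of 20 type I and III interferon genes listed, 16 had a row, 12 of these were listed at 0 in every tumor, and the highest value of any was 0.383 FPKM, for Ifne in adapted/B6 replicate 2. Ifnb1, which encodes interferon-beta, was at 0, 0.0647 and 0.0717 FPKM in the original/B6129SF1 tumors, 0.0702, 0.0555 and 0 in the adapted/B6129SF1 tumors and 0, 0.155 and 0.0631 in the adapted/B6 tumors. These levels overlapped, lay under the filter and were not tested. Plasmacytoid dendritic cells are a classical source of type I interferon, and of their 8 markers Siglech and Ccr9, the defining ones, were at most 0.496 and 0.196 FPKM in any tumor and Cd300c was listed at 0 in 8 of 9 tumors. The others did not move as one. Pacsin1 was at 0.182 to 0.297 FPKM in the original/B6129SF1 tumors and 0.526 to 1.78 FPKM in the adapted tumors, Tcf4, which other cells express too, was at 76.1 to 166 FPKM, Klk1 reached 138 FPKM in 1 tumor, and Cox6a2 was highest in both muscle-rich tumors. Summed, the 8 markers were at 104 to 118 FPKM in the original/B6129SF1 tumors, 184 to 469 in the adapted/B6129SF1 tumors and 147 to 255 in the adapted/B6 tumors. Those sums came almost wholly from Tcf4, Klk1 and Cox6a2. Klk1 was at 138 FPKM in adapted/B6129SF1 replicate 2, and Cox6a2 at 390.8 and 122.5 FPKM in the muscle-rich tumors. The sums are thus not read as a level of these cells, whose part in the rise of the interferon-stimulated genes was not tested.

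The receptors were expressed in every tumor. Ifnar1 ranged from 16 to 21.1 FPKM and Ifnar2 from 29.3 to 40.3 FPKM over the 9 tumors, with log2 fold changes between -0.05 and 0.19. None of the 3 receptor genes with a row passed in either comparison by limma, and 0 of the 7 feedback regulators, among them Socs1 and Socs3, did. At an unadjusted p under 0.05, 0 of the receptors and 1 of the feedback regulators were called, Ptpn6 in the adapted/B6129SF1 group. Of all 10263 genes tested, 2721 were called so in the adapted/B6129SF1 group and 2502 in the adapted/B6 group, so nothing is read from these counts. Ptpn6, a phosphatase gene expressed mainly in blood cells, had a log2 fold change in the adapted/B6129SF1 group of 1.07 ± 0.32 (limma adjusted p = 0.0767). Jak1, which encodes a kinase bound to the receptor, was at 47.5 to 66.0 FPKM and had log2 fold changes of 0.24 and 0.27 that did not pass.

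Of the 13 genes tested in a list on the induction of interferon, 3 passed as higher in the adapted/B6129SF1 group, where 4.37% of all genes tested did. In the adapted/B6 group 1 passed as higher and 1 as lower, near the shares of all genes tested, 3.99% and 2.77%, so nothing is read from these counts. The 3 were Unc93b1, which carries nucleic acid-sensing Toll-like receptors to endosomes, at 1.10 ± 0.23, Samhd1, a dNTP hydrolase, at 0.77 ± 0.13, and the kinase gene Ikbke, at 0.60 ± 0.12. Samhd1 is in this list although it does not itself lead to interferon production. In the adapted/B6 group Samhd1 rose by 0.93 ± 0.13 (limma adjusted p = 0.00535), and Mavs, the adaptor of the RNA helicases, fell from a mean of 22.5 ± 2.00 to 15.9 ± 1.59 FPKM (SD, n = 3, limma adjusted p = 0.0341). Samhd1, Ikbke and Mavs are named because they were the few that passed, after their values were seen.

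**Figure D5:**
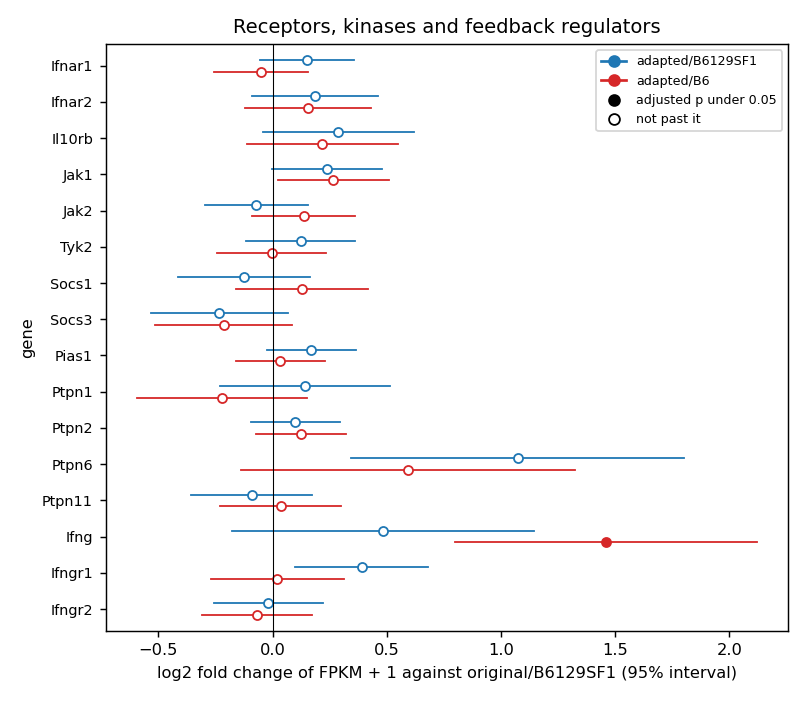
Log2 fold change of FPKM + 1 against the original/B6129SF1 tumors (x axis) with its 95% interval for the receptors, the kinases Jak1, Jak2 and Tyk2, feedback regulators, interferon-gamma and its receptor, in the adapted/B6129SF1 (blue) and adapted/B6 (red) groups. Filled points have an adjusted p under 0.05, which of the genes plotted only Ifng in the adapted/B6 group reached, a gene that met the filter on low values only through the adapted tumors.

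Other interferon-inducible genes outside the list, 37 of which were tested, gave similar counts, with 18 passing as higher in the adapted/B6129SF1 group and 20 in the adapted/B6 group, against 4.37% and 3.99% of all genes tested, and 0 as lower. Without 3 genes that met the filter only through the adapted tumors, 16 and 18 of 34 passed, with median log2 fold changes of 0.71 and 0.75. Gm4951, 1 of those 3 and an interferon-inducible GTPase gene, was at 1.25, 0.590 and 0.612 FPKM in the original/B6129SF1 tumors, 2.86, 5.96 and 5.18 in the adapted/B6129SF1 tumors and 7.42, 6.71 and 11.9 in the adapted/B6 tumors. Its log2 fold changes were 1.62 ± 0.28 and 2.40 ± 0.28, given as a description. Nlrc5, the activator of MHC class I genes, rose by 1.29 ± 0.29 and 1.89 ± 0.29.

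Genes induced mainly by interferon-gamma rose as well. Of 26 tested, 22 passed as higher in the adapted/B6129SF1 group and 20 in the adapted/B6 group, against 4.37% and 3.99% of all genes tested. Ciita and Ido1 met the filter only through the adapted tumors, and without them 20 and 19 of 24 passed, with median log2 fold changes of 1.56 and 1.95. The difference between these medians and those of the type I list was not tested. Cxcl9, a chemokine that attracts T cells, was at 15, 10.7 and 10.1 FPKM in the original/B6129SF1 tumors, 38.6, 111 and 124 in the adapted/B6129SF1 tumors and 140, 108 and 188 in the adapted/B6 tumors. Ifng itself was at 0.216, 0.107 and 0.202 FPKM in the original/B6129SF1 tumors, 0.158, 1.5 and 0.524 in the adapted/B6129SF1 tumors and 2.71, 1.45 and 2.72 in the adapted/B6 tumors, with log2 fold changes of 0.48 ± 0.29 and 1.46 ± 0.29 (SE). It too met the filter only through the adapted tumors, so these values are a description.

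The interferon-gamma genes ordered the adapted/B6129SF1 tumors differently from the type I list. Adapted/B6129SF1 replicate 1, the highest tumor for 31 of the 37 members, was the lowest for 24 of the 26 interferon-gamma genes. In the adapted/B6 group both sets had their highest value mostly in replicate 3, for 35 of 37 and 21 of 26 genes.

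Markers of some host immune cells moved with the groups, and others did not. The 9 T and NK cell markers summed to 14.5, 7.51 and 18.2 FPKM in the original/B6129SF1 tumors, 18.3, 44.8 and 45.6 in the adapted/B6129SF1 tumors and 80.0, 52.4 and 81.5 in the adapted/B6 tumors. The 6 general leukocyte markers summed to between 329 and 388 FPKM in the original/B6129SF1 tumors, 500 and 727 in the adapted/B6129SF1 tumors and 422 and 807 in the adapted/B6 tumors. By limma 1 of these 6 passed in the adapted/B6129SF1 group and 0 in the adapted/B6 group. Of all genes tested, 4.37% and 3.99% passed as higher, so nothing is read from these 2 counts. Of the 7 T and NK cell markers tested, 2 passed as higher in the adapted/B6129SF1 group and 3 in the adapted/B6 group. However, 5 of the 7 met the filter only through the adapted tumors, and of the other 2 markers 1 and 2 passed. The 7 macrophage and monocyte markers summed to between 970 and 1306 FPKM in the original/B6129SF1 tumors, 1384 and 1738 in the adapted/B6129SF1 tumors and 817 and 1870 in the adapted/B6 tumors. In either group 0 of them passed, which is near those shares of all genes tested, so nothing is read from it. Neutrophil markers summed to 23.0 to 29.5, 8.31 to 23.1 and 23.9 to 47.0 FPKM in the 3 groups, and B cell markers to at most 0.682 FPKM in any tumor. Adapted/B6129SF1 replicate 1 had the highest summed level of the 37 genes in its group, at 995.3 FPKM, and the lowest T and NK cell and leukocyte sums of that group. Adapted/B6 replicate 1 had the lowest summed level of the 37 genes in its group and a T and NK cell sum of 80.0 FPKM, near the highest. Adapted/B6 replicate 3 was the highest of its group for the 37 genes, at 1241 FPKM, and for the T and NK cell and leukocyte sums. The 5 epithelial markers summed to 575 to 969 FPKM in the original/B6129SF1 tumors, 265 to 545 in the adapted/B6129SF1 tumors and 369 to 422 in the adapted/B6 tumors, sums set mostly by Krt8 and Krt18. Krt8 fell by 1.32 and 1.12 on the log2 scale, and it was the 1 of the 5 that passed. The median log2 fold changes of the 5 were -0.52 and 0.0020. The part of immune or epithelial content in the rise of the interferon-stimulated genes was not tested.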

How the data were processed

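RNA from 9 bulk tumors was sequenced as paired-end reads on a HiSeq2000, checked with FastQC and aligned to mm10 with HISAT2, and Cuffdiff was used by the authors for DEGs. The deposited table is said to hold FPKM from Cuffnorm, and the paper does not state which samples were normalised together. The annotation, strand setting and gene filter are not given in the sources used here. Tumors were grouped by the labels of the samples.

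The 39 members and all other lists were chosen with earlier results of these data known. FPKM are not counts, so limma 3.58.1 (R 4.3.3; lmFit, eBayes with trend) was run on log2(FPKM + 1) in one model of 3 groups, for the 10263 genes that reached 1 FPKM in 3 or more tumors, with Benjamini-Hochberg adjustment. The smallest p of an exact permutation test with 3 tumors a side is 0.1, so single values were not tested. The procedure was tested on simulated data. The number of tumors limits the precision. Between any pair of tumors at most 0.0487% of genes tested had the same value.

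Any member could be named. From the ligands, receptors, kinases, feedback regulators and interferon-gamma with its receptor any gene could be named, and from other lists only DEGs or the first markers of a cell type. Samhd1, Ikbke, Mavs, Krt18 and the plasmacytoid dendritic cell markers Tcf4, Klk1, Pacsin1, Cox6a2 and Cd300c were named outside this rule. Alternatives were another pseudocount, other filters, quantile and median-of-ratios scaling, no trend, only the groups compared, a replicate block and each tumor left out. Leaving out both muscle-rich tumors was chosen after seeing the data. Sequences and coordinates were not used here, and 1 gene of the pathway is not reported here.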

Additional observations from a re-analysis of the deposited data

How the results depend on the processing

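Under every alternative run, 0 members passed as lower against the original/B6129SF1 tumors and 0 passed between the adapted groups, and the median log2 fold change stayed between 0.61 and 0.88 in the adapted/B6129SF1 group and between 0.85 and 1.15 in the adapted/B6 group. The counts were less stable. The 18 members that passed in the adapted/B6129SF1 group became 9 without a filter on low values, 10 with only the groups compared, and 11 with both muscle-rich tumors left out, a setting chosen after seeing the data that raised the DEGs of the adapted/B6 group to 20. With each tumor left out in turn they numbered 4 to 18 with 4 to 9 DEGs in the adapted/B6129SF1 group, and 7 to 24 with 4 to 19 DEGs in the adapted/B6 group. The count of 4 came without original/B6129SF1 replicate 3, and the count of 7 without adapted/B6 replicate 3. In both settings fewer of all genes tested passed too. The share of all genes tested that passed is not given for the settings in this section, so their counts are a description. In the adapted/B6129SF1 group Zbp1, Ifi27l2a and Sp100 passed under the main test and all 18 alternatives run, and in the adapted/B6 group Oasl2, Stat2, Parp9, Parp14, Zbp1 and Sp100 did. Oas3 had 17 alternatives, as it was not tested with a minimum of 5 FPKM.

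Tumors of the same number are different animals. The correlations of deviations over 9 same-numbered pairs ran from -0.39 to 0.61, 3 were over 0.1, and 3 of the 9 tumors correlated best with their own number. With 3 tumors per group these values cannot exclude a processing step shared by number, which was not tested. With the replicate block 8 members passed in the adapted/B6129SF1 group and 11 in the adapted/B6 group, where 7 were DEGs.

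No gene changed sign in a comparison where it had passed. Between the adapted groups the median ran from 0.0728 to 0.39 with each tumor left out. With each tumor left out in turn, Ifit3 ran from -0.31 to 0.47 in the adapted/B6129SF1 group and from -0.077 to 0.75 in the adapted/B6 group, and Rsad2 from -0.0064 to 0.64 in the adapted/B6129SF1 group. Between the adapted groups the ranges were -0.049 to 0.70 for Ifit1, -0.042 to 0.65 for Ifit3, -0.18 to 0.47 for Rsad2, -0.18 to 0.39 for Usp18, -0.20 to 0.33 for Irf7, -0.12 to 0.12 for Ifi35, -0.18 to 0.53 for Ifi44, -0.0085 to 0.26 for Ddx58, -0.0066 to 0.18 for Trim25, -0.096 to 0.076 for Samd9l and -0.17 to 0.039 for Sp100. Samd9l was also at -0.0045 with median-of-ratios scaling and -0.0328 with both muscle-rich tumors left out, where Sp100 was at 0.00321. The cause of these changes was not tested.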
